A study of Mus musculus with 6 samples.

Results

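Cholesterol and fatty acid synthesis genes were followed in cultured mouse cells labelled as lung microvascular endothelial cells (LMVEC). The cells were isolated from mice with (Ptprz1+/+) and without (Ptprz1-/-) the receptor tyrosine phosphatase PTPRZ1. The gene group held 34 of the 21999 genes in the count table, taken by gene name. All 34 were among the 13609 genes with enough reads to be tested. No member passed the test between genotypes. The pattern that the members did share lay between isolations of the same genotype: in the isolation numbered 2 of either genotype most of them were at their highest.

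Cells make cholesterol from acetyl-CoA through mevalonate, squalene and lanosterol, and fatty acids from acetyl-CoA through malonyl-CoA. Both routes are governed by the sterol regulatory element-binding proteins (SREBPs), membrane-bound transcription factors that the escort protein SCAP carries from the endoplasmic reticulum to the Golgi, where proteases release them. When sterols are plentiful, the INSIG proteins hold SCAP back and the enzymes' transcripts fall. Sterol excess instead acts through the liver X receptors on the exporters ABCA1 and ABCG1, so that export and synthesis are usually regulated in opposite directions.

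The Ptprz1-/- mice carry the deletion in every cell and, like the Ptprz1+/+ mice, were of the SV129/B6 strain. For each isolation the lungs of 2 to 5 mice aged 3 to 8 weeks were pooled, and the untreated cells were grown in serum and endothelial growth supplement until confluent, then captured with CD31 beads. Each genotype had 3 independent isolations, each sequenced as 1 library, so that the p-values below measure the spread between isolations. The labels give no date or batch for an isolation, and nothing in them ties isolations of the same number together.

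Depth ranged from 14496881 to 17709663 counts per library. Counts of the targeted gene Ptprz1 overlapped between genotypes, at 197, 1837 and 508 in replicates 1, 2 and 3 of Ptprz1+/+ (an order kept below) against 1138, 1320 and 895 where the label was Ptprz1-/-. Reads were counted over the whole gene, so they do not tell whether a deleted exon was still present, and the genotypes are named here as the labels give them. The endothelial label was borne out unevenly too, and in every library the fibroblast markers outweighed the endothelial ones. The summed CPM (counts scaled to a library total of 1e6) of 12 endothelial markers was 131, 95.8 and 695 in Ptprz1+/+ and 86.5, 132 and 270.1 in the libraries labelled Ptprz1-/-. Of that sum, Eng alone gave 101, 59.4 and 142 CPM in Ptprz1+/+ and 59.6, 115 and 90.5 CPM in Ptprz1-/-. In replicates 1 and 2 of both genotypes Eng was thus most of the sum. The defining marker Pecam1, which encodes CD31, was at 1.36 to 4.40 CPM in replicates 1 and 2 of both genotypes, against 91.0 and 32.4 CPM in the replicates numbered 3. The 10 fibroblast markers summed to 18289, 17943 and 25934 CPM in Ptprz1+/+ and 12905, 10976 and 27402 CPM in Ptprz1-/-, far above the endothelial sum in all 6 libraries. In such bulk samples, fewer cells of a type and less RNA per cell cannot be told apart.

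To show what the promoters of these genes have in common, the 250 bases before the RefSeq start (GRCm38.p6) were searched on both strands for 3 short motifs, and windows were found for 26 of the 34 members. The sterol regulatory element was searched as TCACNCCAC, the CCAAT box, bound by the SREBP partner NF-Y, as CCAAT, and the E-box as CACGTG. The CCAAT box was present in 19 of 26 members (73.1%), against 37.5% of all 27025 genes with a window. An E-box was present in 6 of 26 (23.1%, against 6.86% of all genes), and the sterol regulatory element in 1 of 26 (3.85%, against 1.22%). The 27025 genes were not limited to those tested here, and the 26 members had 34 windows between them. Some windows lie in exons, and all 250 bases did for Idi1, Tm7sf2 and the Dhcr7 windows with a match. RefSeq starts can differ from the gene starts in the table. A match is a description of the letters and not a bound site, and a window without one says nothing about the factor.

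Windows of 4 members are given, 1 from each of the larger role groups, written 5′ to 3′ on the strand of the gene with the motifs in capitals (ATTGG is CCAAT on the other strand) and without bases that GENCODE M21 places in an exon. Hmgcs1 (chr13:119690101-119690350, plus strand) held the only sterol regulatory element, which began 137 bases before the RefSeq start, together with 3 CCAAT boxes. Insig1 (chr5:28071162-28071362, plus strand) and Sc5d (chr9:42264301-42264550, minus strand) each held 1 CCAAT box and 1 E-box. Fasn (chr11:120824548-120824797, minus strand) held 3 CCAAT boxes, of which a pair on opposite strands overlap in CCAATTGG, the only overlap between matches in these windows.
Hmgcs1: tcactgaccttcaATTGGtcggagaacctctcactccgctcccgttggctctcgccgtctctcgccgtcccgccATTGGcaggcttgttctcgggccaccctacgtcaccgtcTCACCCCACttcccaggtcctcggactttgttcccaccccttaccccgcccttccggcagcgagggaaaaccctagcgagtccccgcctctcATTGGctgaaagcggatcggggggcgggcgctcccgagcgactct
Insig1: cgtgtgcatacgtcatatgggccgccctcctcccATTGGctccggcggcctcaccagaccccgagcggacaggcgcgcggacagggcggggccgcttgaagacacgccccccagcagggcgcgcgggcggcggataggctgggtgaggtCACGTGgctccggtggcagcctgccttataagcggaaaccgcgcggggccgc
Sc5d: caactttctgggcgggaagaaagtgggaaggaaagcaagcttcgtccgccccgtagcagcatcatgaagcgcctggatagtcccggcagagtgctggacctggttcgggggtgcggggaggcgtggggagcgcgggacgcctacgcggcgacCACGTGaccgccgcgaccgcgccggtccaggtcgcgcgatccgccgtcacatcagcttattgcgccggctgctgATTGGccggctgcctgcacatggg
Fasn: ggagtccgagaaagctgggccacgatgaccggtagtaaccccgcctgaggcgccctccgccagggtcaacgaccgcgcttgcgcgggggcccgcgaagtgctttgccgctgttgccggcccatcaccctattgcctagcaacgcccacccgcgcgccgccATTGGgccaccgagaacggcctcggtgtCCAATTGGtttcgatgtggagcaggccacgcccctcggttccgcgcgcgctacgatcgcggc

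Per kilobase of the gene length that the authors' table gives, Scd2, one of the desaturases that turn saturated into monounsaturated fatty acids, was the most abundant member. Its level was 234 ± 120.4 CPM per kb in Ptprz1+/+ and 276 ± 67.4 in Ptprz1-/- (SD, n = 3 each), at the 98.5th percentile of the genes tested. Fdps, which makes farnesyl diphosphate, followed at 160.2 ± 19.0 and 189 ± 58.1 CPM per kb. Next came the SREBP retention factor Insig1, at 104 ± 9.20 and 177 ± 67.2 CPM per kb. The polyunsaturated fatty acid desaturases stood at 103 ± 24.3 and 139 ± 32.1 for Fads2 and at 99.9 ± 14.5 and 131 ± 23.2 for Fads1. Within a genotype, Insig1, Fads2 and Fads1 differed from each other by less than the larger of their SDs. The Fads2 level is uncertain, because GENCODE M21 also holds a transcript longer than the 1508 bases of the table. Scd1 stood at 103 ± 60.1 and 79.8 ± 44.8 CPM per kb, most remaining members lay between 10.4 and 91.9 CPM per kb in either genotype, and the cholesterol exporter Abcg1 was far below them at 0.921 ± 0.284 and 0.507 ± 0.262 CPM per kb.

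**Figure D1:**
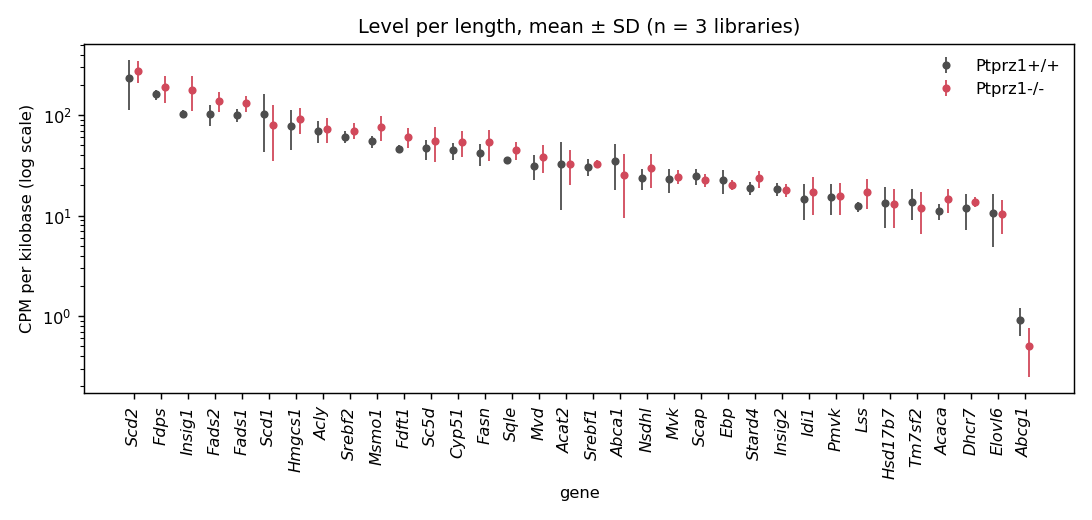
Level of the 34 members in CPM per kilobase of gene length (log axis), ordered from left to right by the mean of both genotypes; points are means of 3 libraries and bars the SD. Scd2 and Fdps lead, Abcg1 stands alone at the low end, and the bars of the genotypes overlap for most members.

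To find whether loss of PTPRZ1 goes with a change in these genes, each gene was tested between genotypes with edgeR's quasi-likelihood test. Of the 34 members 0 had an adjusted p below 0.05, as had 0% of all genes tested. At an unadjusted p below 0.05 there was 1 member, Insig1, with the higher mean in Ptprz1-/-, against 2.69% of all genes (1.13% higher and 1.56% lower). DESeq2 called 0 members and 0.22% of all genes, and at its unadjusted threshold it gave 1 member and 3.63% of all genes. The log2 fold change of Ptprz1-/- over Ptprz1+/+ was above 0 in 25 members and below 0 in 9, where 49.1% of all genes were above 0, and its median was 0.22 over the members against -0.0047 over all genes tested. The members moved together from library to library, so the 34 directions are far from independent. The median was 0.0065 without Ptprz1-/- replicate 2, 0.10 without Ptprz1+/+ replicate 1 and 0.40 without Ptprz1+/+ replicate 2. Some marker lists of cell types and of proliferation had medians farther from 0 than the members, and 0 of their genes passed the test. All 6 mesothelial markers had a log2 fold change above 0, with a median of 2.40, and their sum was 217, 55.8 and 90.7 CPM in Ptprz1+/+ and 1379.5, 115 and 279 CPM in Ptprz1-/-. Below 0 lay 12 of 12 endothelial markers (median -1.43), 10 of 10 fibroblast markers (median -0.65) and 11 of 11 proliferation markers (median -1.57). Of the 10 fibroblast markers, 3 had all Ptprz1-/- libraries below the Ptprz1+/+ libraries, against 3.73% of all genes. Thy1 and Postn had an unadjusted edgeR p below 0.05, both lower in Ptprz1-/-. Single libraries weighed on some of the other lists as well. The proliferation sum was 932 CPM in Ptprz1+/+ replicate 2 and between 123 and 250.5 CPM in the other libraries. The part of these lists in the members' values was not tested. The 95% interval of the log2 fold change included 0 in 33 of 34 members. It ran from -0.30 to 0.50 for Srebf1, one of the steadier members, and from -1.21 to 1.24 for Acat2. With 3 isolations against 3, differences inside these bounds remained compatible with the data.

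**Figure D2:**
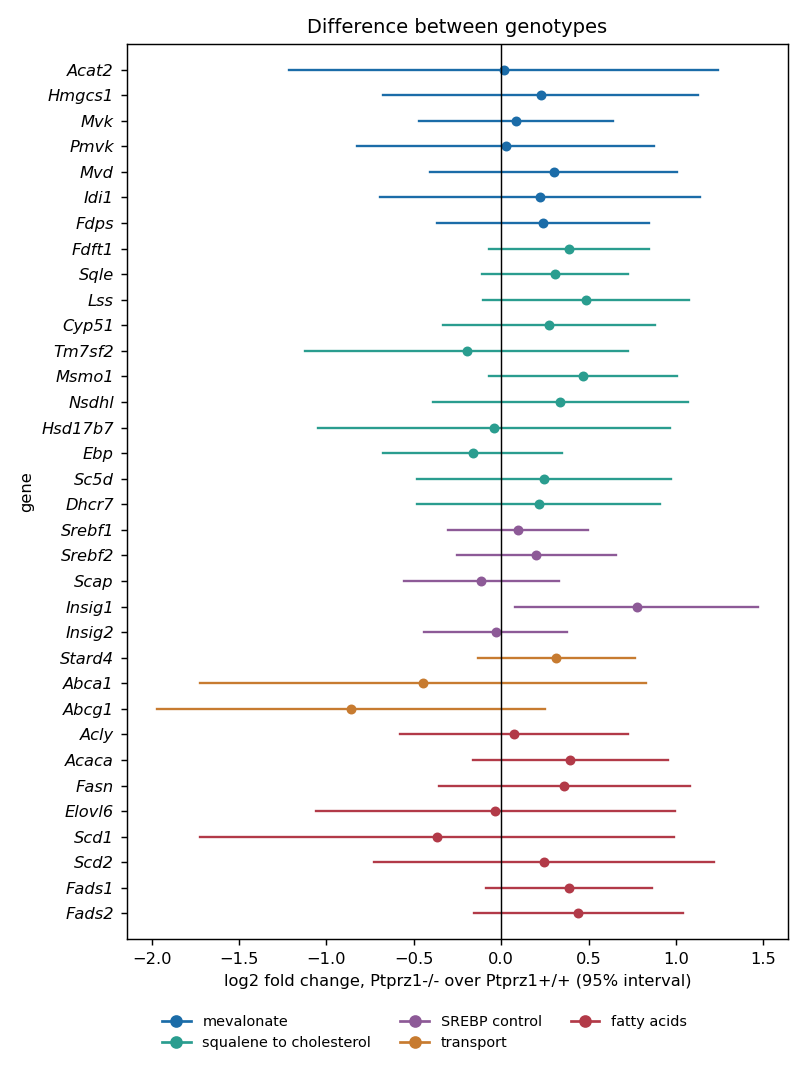
Log2 fold change of each member between genotypes with its 95% interval from the edgeR fit, coloured by role, with positive values higher in Ptprz1-/-. The interval of Insig1 runs from 0.08 to 1.47 and is the one that leaves out 0.

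Of the 5 genes that control SREBP activity, 3 had a log2 fold change above 0, with a median of 0.10, and 0 passed the test. That median was 0.0089 without Ptprz1+/+ replicate 3, 0.025 without Ptprz1-/- replicate 2 and 0.20 without Ptprz1+/+ replicate 2. Insig1, itself a SREBP target and the retention factor of SCAP, had 264, 307.9 and 266 CPM in Ptprz1+/+ replicates 1, 2 and 3 and 456, 669 and 308.1 CPM in the libraries labelled Ptprz1-/-. The groups did not overlap, but Ptprz1-/- replicate 3 lay only just above the highest Ptprz1+/+ library. The log2 fold change was 0.77 (SE 0.29). By edgeR its unadjusted p was 0.0344, the smallest among the members, and its adjusted p 1.00. Exact two-sided permutation over the libraries returned 0.10, the smallest value that 3 against 3 allow. The size of the Insig1 difference rested on Ptprz1-/- replicate 2, without which the log2 fold change was 0.45, whereas without Ptprz1-/- replicate 3 it was 1.01.

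The other controllers showed no such separation. Insig2, the second retention factor, had 58.7, 44.4 and 45.9 CPM in Ptprz1+/+ and 44.4, 56.9 and 44.4 in Ptprz1-/-, with overlapping groups and a log2 fold change of -0.03 (SE 0.17). The escort Scap had 88.9, 125 and 96.8 CPM in Ptprz1+/+ and 79.3, 107 and 100.1 in Ptprz1-/-. The groups overlapped, and the log2 fold change was -0.11 (SE 0.18). Srebf2, which encodes the SREBP that acts chiefly on sterol synthesis, was at 265, 304 and 343 CPM in Ptprz1+/+ and 288, 413 and 348 in Ptprz1-/-, a log2 fold change of 0.20 (SE 0.19). For Srebf1, whose products act chiefly on fatty acid synthesis, the values were 120.0, 159.6 and 115 CPM against 135, 154 and 132, a log2 fold change of 0.10 (SE 0.17). The groups overlapped for both SREBP genes. Srebf1 and Insig2 were among the steadiest members, with a highest library 1.39 and 1.32 times the lowest, against 2.53 times for Insig1.

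Of the 7 genes of the mevalonate route, 7 had a log2 fold change above 0, with a median of 0.22, and 0 passed the test or separated the genotypes. The direction rested on single libraries: the median was -0.061 without Ptprz1-/- replicate 2, -0.057 without Ptprz1+/+ replicate 1 (where Acat2, Hmgcs1, Mvk, Pmvk and Idi1 were below 0) and 0.54 without Ptprz1+/+ replicate 2. Acat2, the cytosolic thiolase that starts the route, varied most: it had 32.1, 125 and 61.4 CPM in Ptprz1+/+ and 57.7, 106 and 57.3 in Ptprz1-/-. Its genotype means were nearly equal at 72.9 ± 47.6 and 73.6 ± 27.8 CPM, while the lowest and highest Ptprz1+/+ library differed more than any pair across genotypes. Reads of Acat2 could be split with its near-copy Acat3, and 435 bases overlap the opposite-strand gene Tcp1; whether the counting used strand is not given in the sources used here. Idi1, the isopentenyl diphosphate isomerase, had 27.8, 62.7 and 43.2 CPM in Ptprz1+/+ and 41.8, 76.2 and 37.8 in Ptprz1-/-. Replicate 2 was again the highest on either side. Fdps had 191, 225 and 179.8 CPM in Ptprz1+/+ and 246, 299.7 and 157 in Ptprz1-/-, so that the Ptprz1-/- libraries lay on both sides of the others. Fdps and Idi1 also have near-copies among pseudogenes, which had at most 19 counts in any library where the table lists them. Hmgcs1, the synthase that forms HMG-CoA, ranged from 142 to 362 CPM in Ptprz1+/+ and from 228 to 394 in Ptprz1-/-, with a log2 fold change of 0.23 (SE 0.37). The kinases Mvk and Pmvk and the decarboxylase Mvd had log2 fold changes of 0.08, 0.03 and 0.30.

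From squalene synthesis to cholesterol, 8 of 11 genes had a log2 fold change above 0, with a median of 0.28, and 0 passed the test. Without Ptprz1-/- replicate 2 that median was 0.018, without Ptprz1+/+ replicate 1 it was 0.16, and without Ptprz1-/- replicate 3 it was 0.42. Sqle, the squalene epoxidase, had 148, 169.0 and 166 CPM in Ptprz1+/+ and 169.8, 245 and 183 in Ptprz1-/-. It was with Insig1 the only member whose Ptprz1-/- libraries all lay above the Ptprz1+/+ libraries, which makes 2 of 34 against 3.55% of all genes, and 0 members lay all below, against 3.73%. The gap was under 1 CPM for both. With upper-quartile scaling 0 members were separated, and with no filter on low counts 3 were separated upwards. Without Ptprz1+/+ replicate 2 the count of members separated upwards was 12, where 7.67% of all genes were, and without Ptprz1-/- replicate 3 it was 9, where 8.77% of all genes were. For Sqle the log2 fold change was 0.31 (SE 0.17), and the exact permutation p was 0.10.

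Msmo1, the sterol-C4-methyl oxidase and the most abundant gene of this stretch per kilobase, had 149, 151 and 189 CPM in Ptprz1+/+ and 195, 297 and 184 in Ptprz1-/-. One Ptprz1-/- library was below the highest Ptprz1+/+ library, and the log2 fold change of 0.47 (SE 0.22) did not pass. Lss, which closes squalene epoxide into lanosterol, and Fdft1, the squalene synthase, had log2 fold changes of 0.49 (SE 0.25) and 0.39 (SE 0.19); Fdft1 shares 774 bases with Ctsb on the opposite strand, which had 30422 counts or more in every library. Tm7sf2, a sterol reductase, had 14.9, 18.5 and 28.1 CPM in Ptprz1+/+ and 11.1, 26.8 and 15.8 in Ptprz1-/-. The groups overlapped, with a log2 fold change of -0.20 (SE 0.38). Its reads may include some of Vps51, with which it shares 532 bases on the same strand. Hsd17b7, the 3-ketosteroid reductase of the route, had 33.5, 87.1 and 64.5 CPM in Ptprz1+/+ and 41.1, 88.5 and 50.3 in Ptprz1-/-. The values of both groups ran in the same order, replicate 2 at the top and replicate 1 at the bottom, and the log2 fold change was -0.04 (SE 0.42). The demethylase Cyp51, the dehydrogenase Nsdhl, the desaturase Sc5d and the reductase Dhcr7 had log2 fold changes between 0.21 and 0.34, and the isomerase Ebp -0.16, with SEs from 0.21 to 0.30.

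**Figure D3:**
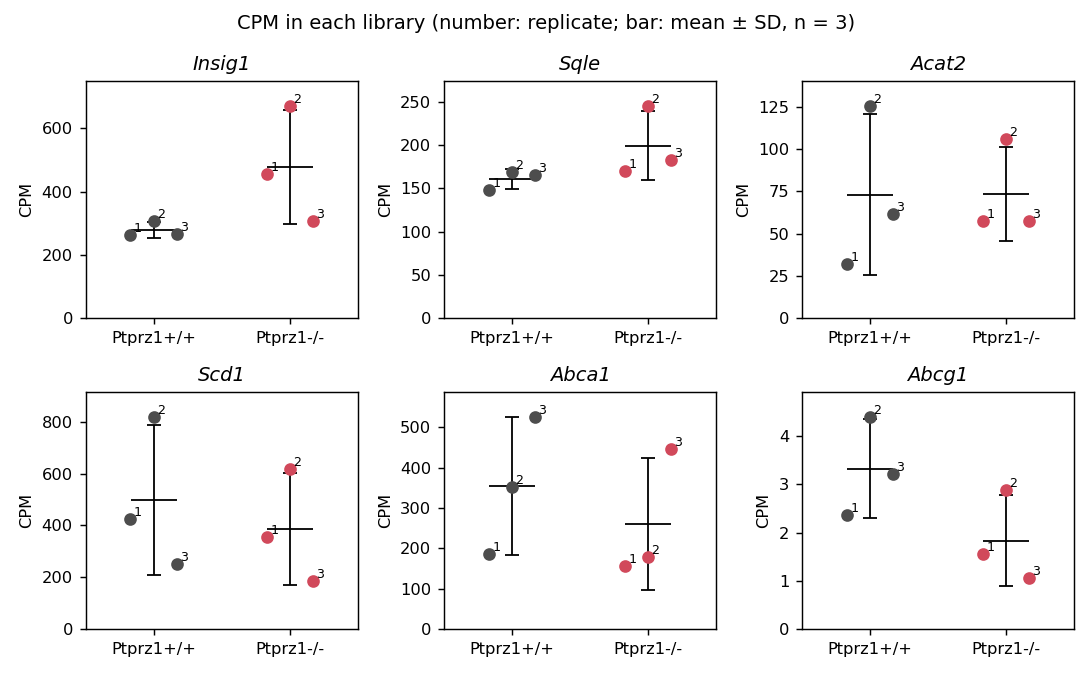
CPM of 6 members in each library; the number beside a point is the replicate, the horizontal bar the mean and the whiskers the SD (n = 3). Ptprz1-/- replicate 2 is at the top of its group in every panel but Abca1, where replicate 3 leads in both genotypes.

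Sterol transport was the role group with a median log2 fold change below 0, at -0.45 over 3 genes, of which 0 passed the test. The median was -0.75 without Ptprz1+/+ replicate 1, -0.047 without Ptprz1+/+ replicate 3, -0.18 without Ptprz1-/- replicate 1 and -0.23 without Ptprz1-/- replicate 2. Abca1, which exports cholesterol and phospholipid to apolipoprotein, had 185, 353 and 525 CPM in Ptprz1+/+ and 156, 178 and 447 in Ptprz1-/-. Replicate 3 was the highest in both genotypes, as it was for the summed endothelial, fibroblast and macrophage markers. The fibroblast sum was mostly Col1a1, Col1a2 and Col3a1, and the part of these markers in the values was not tested. The log2 fold change of Abca1 was -0.45 (SE 0.53). Leaving out Ptprz1-/- replicate 3 gave -1.09 and leaving out Ptprz1+/+ replicate 3 gave -0.047. Abcg1 rested on few reads, with 39, 80 and 51 counts in Ptprz1+/+ and 25, 42 and 16 in Ptprz1-/-. Ptprz1-/- replicate 2 lay above Ptprz1+/+ replicate 1 in CPM, so the groups overlapped, and the log2 fold change of -0.86 (SE 0.46) was the lowest of the members. Stard4, which carries cholesterol between membranes, went with the synthesis genes instead: it ranged from 81.9 to 111 CPM in Ptprz1+/+ and from 101 to 145 in Ptprz1-/-, with a log2 fold change of 0.32 (SE 0.19).

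Of the 8 fatty acid genes, 6 had a log2 fold change above 0, with a median of 0.30, and 0 passed the test. The median was 0.072, 0.12 and 0.20 without Ptprz1-/- replicate 2, Ptprz1+/+ replicate 1 and Ptprz1+/+ replicate 3, and 0.53 and 0.44 without Ptprz1+/+ replicate 2 and Ptprz1-/- replicate 3. Scd1, the other stearoyl-CoA desaturase, had the largest spread within genotypes of all members, a pooled SD of 0.86 on the log2 CPM scale. Its values were 426, 818 and 249.7 CPM in Ptprz1+/+ and 357, 616 and 185 in Ptprz1-/-. The libraries fell in the same order in both genotypes, replicate 2 highest and replicate 3 lowest, with a log2 fold change of -0.37 (SE 0.56). Scd2 had 820.3, 2027 and 974 CPM in Ptprz1+/+ and 1625, 1802 and 1095 in Ptprz1-/-, all Ptprz1-/- values lying inside the Ptprz1+/+ range. Scd1 and Scd2 share a stretch of 592 bases at 95.9% identity, over which reads could be assigned to either. Elovl6, which lengthens palmitate, had 37.3, 102 and 50.1 CPM in Ptprz1+/+ and 46.6, 87.6 and 51.4 in Ptprz1-/-. Here too the groups covered each other, and the log2 fold change was -0.03 (SE 0.43). The fatty acid synthase Fasn ranged from 315 to 507 CPM in Ptprz1+/+ and from 393 to 712 in Ptprz1-/-, a log2 fold change of 0.36 (SE 0.30). Acaca, which makes malonyl-CoA, had 0.40 (SE 0.23), Acly, which supplies cytosolic acetyl-CoA, 0.07 (SE 0.27), Fads1 0.39 (SE 0.20) and Fads2 0.44 (SE 0.25).

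The members shared an order across isolations. Within Ptprz1-/-, replicate 2 was the highest library for 32 of 34 members (94.1%), while it was the highest for 31.3% of all genes tested. Within Ptprz1+/+, replicate 2 was the highest for 26 of 34 (76.5%, against 37.6% of all genes) and replicate 1 the lowest for 28 of 34 (82.4%, against 31.2%). For 26 members replicate 2 led in both genotypes, which holds for 9.52% of all genes. The 2 members with another leader in Ptprz1-/- were Ebp and Abca1. These shares describe single libraries, and no test was run on them because 1 isolation has no replicate. The members moved together from library to library, so the shares do not rest on 34 independent genes. Nor do the labels tie the libraries numbered 2 to each other.

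**Figure D4:**
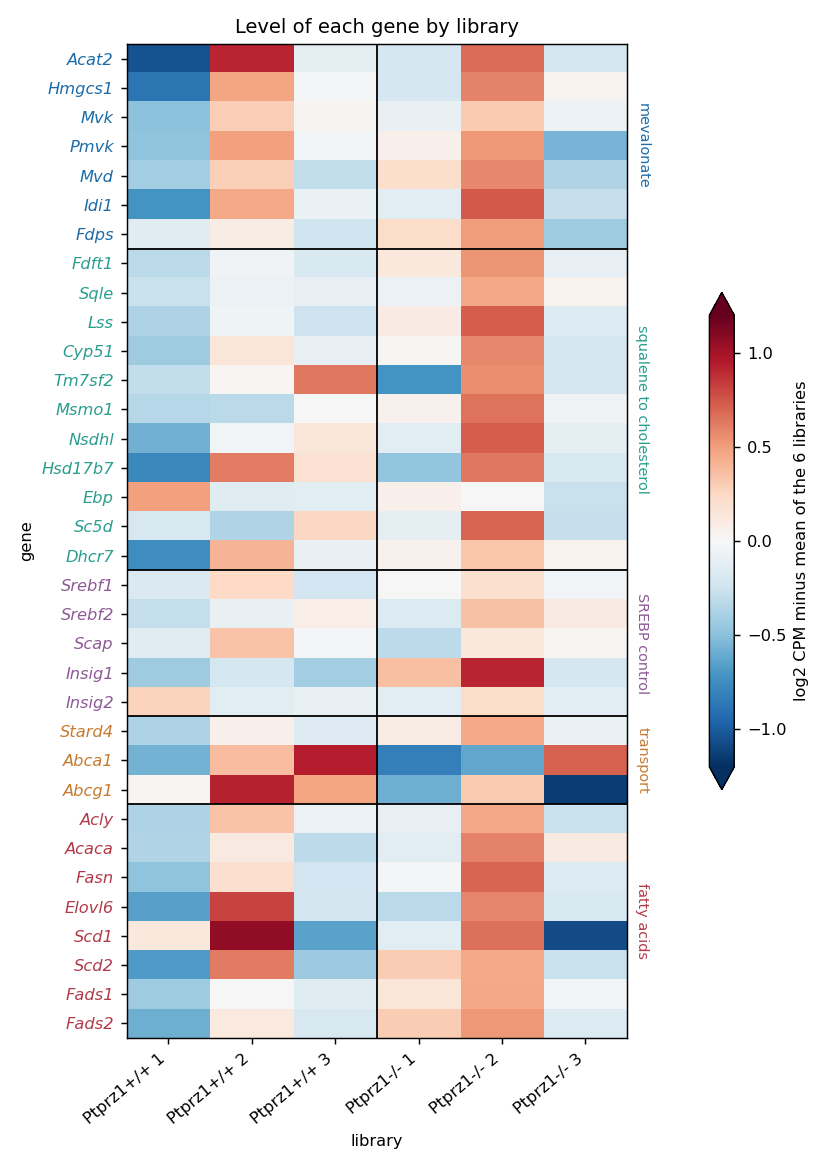
Log2 CPM of each member in each library, minus the gene's mean over the 6 libraries, grouped by role; red is above and blue below the mean. The column of Ptprz1-/- replicate 2 is red for nearly all members, though not for Abca1. That of Ptprz1+/+ replicate 1 is blue for most, but Ebp, Insig2 and Scd1 are above their mean there.

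By summed CPM, the 18 enzymes from Acat2 to Dhcr7 stood at 1378, 2036 and 1762 in Ptprz1+/+ and 1817, 2728 and 1666 in Ptprz1-/-. The 8 fatty acid genes summed to 2338, 4555 and 2547 in Ptprz1+/+ and 3507, 4617 and 2650 in Ptprz1-/-. In both sums the highest library was Ptprz1-/- replicate 2, the lowest Ptprz1+/+ replicate 1, and the genotypes overlapped. The mean Pearson r between pairs of genes over the 6 libraries was 0.82 in the mevalonate route, 0.75 among the fatty acid genes and 0.53 over all members, against 0.0008 over all genes. It was -0.02 among the 3 sterol transport genes. These values are descriptions over 6 points that share libraries and scaling. As a share of all counts of a library, the members took between 0.469% and 0.857%.

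Marker lists of other properties had orders across the libraries that differed from the members' in part or in whole, and their part in the members' levels was not tested. The sum of 11 proliferation markers was 932 CPM in Ptprz1+/+ replicate 2 and between 123 and 250.5 CPM in the other libraries. It was 129 CPM in Ptprz1-/- replicate 2, where 9 of the 11 markers were at their lowest within the genotype and most members at their highest. In Ptprz1+/+ replicate 2, 11 of the 11 markers and most members were at their highest within the genotype. The sums of the endothelial, fibroblast and macrophage markers were each highest in the replicates numbered 3. Most of the fibroblast sum came from the collagens Col1a1, Col1a2 and Col3a1. Within Ptprz1+/+, Pdgfra, Dcn, Lum and Fbln1 were instead highest in replicate 2, as most members were. Within Ptprz1-/-, Fbln1 was highest in replicate 2, and Pdgfra, Dcn and Lum in replicate 3. The macrophage markers Cd68 and Lyz2 were highest in replicate 1 of Ptprz1-/-. Markers of adipocytes, which also make fatty acids, summed to between 35.4 and 82.7 CPM, with the defining Adipoq and Plin1 at 1 count or fewer in every library. Those of alveolar type 2 cells, which use the route for surfactant, summed over 7 genes to 128, 93.3 and 133 CPM in Ptprz1+/+ and 125, 159 and 119 in Ptprz1-/-, with the defining Sftpc and Sftpb at 4 counts or fewer. That sum was highest in Ptprz1-/- replicate 2, as for the members, but lowest in Ptprz1+/+ replicate 2. It was carried by Abca3, at 86.3, 55.1 and 101 CPM in Ptprz1+/+ and 85.5, 101 and 85.0 in Ptprz1-/-, and by Etv5, at 41.9, 37.8 and 31.8 against 39.9, 57.9 and 33.5. The 8 macrophage markers summed to between 25.1 and 75.2 CPM.

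**Figure D5:**
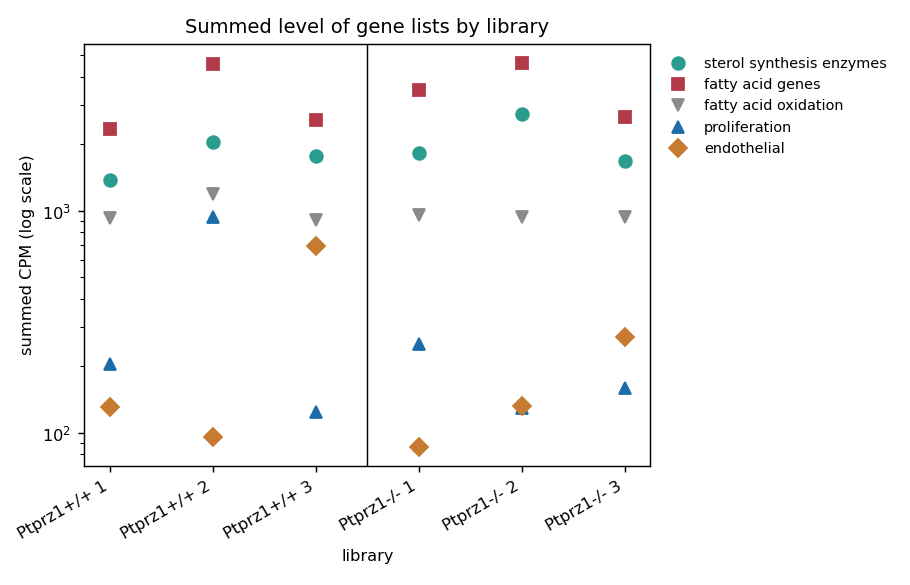
Summed CPM (log axis) of 5 gene lists in each library, 1 point per library and list. The sterol and fatty acid genes are high in both replicates numbered 2, the proliferation markers in Ptprz1+/+ replicate 2 alone, and the endothelial markers in the replicates numbered 3.

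Neighbouring genes of lipid synthesis outside the group were counted from a list of 35, which covered isoprenoid branches, SREBP proteases, liver X receptors, elongases, acyl-CoA synthetases and glycerolipid synthesis. Of these, 33 were tested, 0 passed, 19 had a log2 fold change above 0 and 14 below, and the median was 0.03. The receptors' genes Nr1h2 and Nr1h3 had log2 fold changes of 0.15 and 0.03, and Mylip, a further liver X receptor target, -0.51 (SE 0.29). The proteases that cleave SREBPs, Mbtps1 and Mbtps2, had 0.10 and 0.02. At an unadjusted p below 0.05 there was 1 of 33 genes, near the 2.69% of all genes, and it was Acacb, the mitochondrial acetyl-CoA carboxylase whose malonyl-CoA restrains fatty acid oxidation. It had 6.58, 7.20 and 6.44 CPM in Ptprz1+/+ and 15.9, 8.51 and 12.4 in Ptprz1-/-. All Ptprz1-/- libraries lay above the others, as for 3.55% of all genes, with replicate 2 the lowest of them, unlike the members. The log2 fold change was 0.86 (SE 0.27), and edgeR gave an unadjusted p of 0.0163 and an adjusted p of 1.00.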

How the data were processed

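RNA of 6 LMVEC isolations, 3 per genotype by the labels, was measured by RNA-seq. The authors deposited a table of whole-number read counts per gene and library, not normalized. The labels name STAR, HTSeq, TopHat, DESeq2 and edgeR without roles, and GRCm38 and mm10 as builds. The table's FPKM values, genotype means and the authors' own fold changes and p-values were not used. Gene length was taken from the table.

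Counts were normalized (TMM), filtered with filterByExpr and tested with edgeR 4.0.16 (glmQLFit, glmQLFTest, genotype as the only term) in R 4.3.3, with Benjamini-Hochberg adjustment over 13609 genes at 0.05. SEs are the absolute log2 fold change over the square root of F. CPM are on the TMM-scaled library size. Single genes were also compared by exact two-sided permutation. The script was tested on simulated data. Alternatives were DESeq2 1.42.0, upper-quartile scaling, other filters on low counts, a replicate block, an adjusted threshold of 0.1 and each library left out. Where 1 library is left out, the spread is pooled over those that remain. Leaving out both libraries of a number was added after seeing the data.

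The depth was 14496881 to 17709663 counts, and members other than Abcg1 (16 counts or more) had at least 179 counts in each library, so the spread between isolations limits the precision. Of the listed genes, 3 were matched by identifier under an older symbol and 2 had no row. Transcripts (GENCODE M21) were compared by minimap2 2.31, keeping matches of 100 bases or more at 95% identity or more. The members and lists were chosen with earlier results of these data known. By rule, values in every library are given for members with an unadjusted p below 0.05 or without overlap, the 2 with the largest spread and the most abundant one per role group, and the SREBP controllers. Some genes of the route are not reported here.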

Additional observations from a re-analysis of the deposited data

How the results depend on the processing

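At the adjusted threshold 0 members and 0 supporting genes passed under any of the 14 alternatives (0 of 510 fits of single members, the reported ones included), and the median over the members stayed above 0 (0.0065 to 0.40). DESeq2 called 10 genes higher and 20 lower in Ptprz1-/- among all genes, where edgeR called 0. With its size factors 1 member was separated upwards instead of 2. With upper-quartile scaling and with at least 10 counts in every library it was 0, and with no filter on low counts it was 3. Over the fits that leave out 1 library or both of a number, members with an unadjusted p below 0.05 numbered 0 to 4 (all genes, 1.88% to 4.84%), members separated upwards 2 to 12 (all genes, 6.94% to 16.2%) and downwards 0 to 2 (all genes, 6.93% to 15.3%), and supporting genes with an unadjusted p below 0.05 0 to 2. The median of the sterol transport genes ran from -0.75 to -0.047. The log2 fold change changed sign in 17 members under some alternative and in 17 under none. The ranges on leaving out libraries were Acat2 -0.34 to 0.65, Hmgcs1 -0.057 to 0.57, Mvk -0.10 to 0.27, Pmvk -0.26 to 0.31, Idi1 -0.16 to 0.54, Ebp -0.30 to 0.084, Dhcr7 -0.030 to 0.53, Insig2 -0.23 to 0.17, Acly -0.18 to 0.28, Hsd17b7 -0.43 to 0.29, Scap -0.21 to 0.039, Elovl6 -0.37 to 0.50, Scd1 -0.88 to 0.19, Tm7sf2 -0.68 to 0.18, Nsdhl -0.0049 to 0.64, Sc5d -0.24 to 0.62, Scd2 -0.049 to 0.75. Acat2 also turned to -0.019 with upper-quartile scaling. Of the libraries, Ptprz1-/- replicate 2 and Ptprz1+/+ replicates 1 and 2 gave most of these extremes; the cause was not tested. Same-numbered libraries did not deviate together in every pair (r = 0.45, -0.06 and 0.52 over 13609 genes for numbers 1, 2 and 3), so the numbers were not taken as a pairing. Between numbers 1 and 3 of opposite genotypes r was -0.57 and -0.46. The members' mean deviation in log2 CPM was -0.31, 0.30 and 0.010 in Ptprz1+/+ and -0.15, 0.40 and -0.25 in Ptprz1-/-. With the replicate number as a block, 3 members had an unadjusted p below 0.05 (Insig1 and Acaca higher, Scd1 lower), as did 3 supporting genes and 283 genes higher and 407 lower among all genes, against 154 and 212 without it. With this block 0 members passed the adjusted threshold, and the log2 fold change of Elovl6 turned to 0.042. The choice mattered for the SEs, which fell with the block in all members but Msmo1, Sc5d and Insig2. For Scd1 the SE went from 0.56 to 0.13, and for Sc5d from 0.30 to 0.33. The members other than Abcg1 had at least 179 counts in each library, so counting error was small beside the spread between isolations.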

Other observations

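Genes of fatty acid oxidation, the opposing route, were followed in the same libraries. Of 17 genes, all tested, 0 passed edgeR's quasi-likelihood test at an adjusted p below 0.05, 0 had an unadjusted p below 0.05 and DESeq2 called 0, where the shares of all genes were 0%, 2.69% and 0.22%. The log2 fold change of Ptprz1-/- over Ptprz1+/+ was above 0 in 5 and below 0 in 12, with a median of -0.09 against -0.0047 over all genes tested. Their sum was 1189 CPM in Ptprz1+/+ replicate 2 and between 909.9 and 953 CPM in the other libraries. Ptprz1+/+ replicate 2 was the highest library of its genotype for 14 of 17 genes, against 37.6% of all genes, as it was for most synthesis genes. Ptprz1-/- replicate 2, which led for 32 of the 34 members, led for 4 of 17 oxidation genes, near the 31.3% of all genes. It was the lowest for 9 of them, against 31.5% of all genes. Cpt1a, which admits long-chain fatty acids to mitochondria, had 115, 276 and 136 CPM in Ptprz1+/+ and 115, 121 and 137 in Ptprz1-/-, a log2 fold change of -0.50 (SE 0.33). Its difference between genotypes lay in Ptprz1+/+ replicate 2 alone.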
